A study of Mus musculus with 6 samples.

Results

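The genes described here are 43 genes of DNA replication and mitosis in mouse invariant natural killer T (iNKT) cells, T cells that recognise lipids presented on CD1d. They were taken by gene symbol from a list of names, and all 43 were found among the 27998 genes of the count matrices. They were described in 3 groups by role, with 18 S-phase members, 22 mitotic members and 3 members (Hmgb2, Tubb5 and Stmn1) that were counted in neither group and are called broadly expressed below. Stmn1 went against that name in the single cells described below.

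Single-cell RNA-seq libraries (10x Genomics 3′ v2 chemistry) had been made from iNKT cells sorted from the liver, the spleen and the lymph nodes of wild-type C57BL/6 mice aged 5 weeks, with 2 libraries per organ (n = 2). Cells carrying CD8 or B220 had been depleted, and TCR-β and CD1d tetramer positive cells were then sorted. The study's methods call the libraries of an organ biological repeats. The mice's sex, how many mice went into a library and whether the libraries of an organ came from separate animals are not given in the sources used here, so the p-values below measure the spread between these libraries. After filtering, 16532 of 16587 cell barcodes remained, with 2638 to 2861 cells per library. The liver libraries were the deepest, with 11086603 and 9041008 unique molecular identifiers (UMIs, 1 per captured RNA molecule). This compares with 4768016 to 5433779 in the spleen and lymph node libraries. Levels are given as UMIs of a gene per 1000000 retained UMIs of its library (CPM). The comparisons used edgeR's quasi-likelihood test on summed UMIs with Benjamini-Hochberg adjustment over the 10181 genes tested, called at an adjusted p below 0.05. Both lymph node libraries held Y-chromosome UMIs (1366 and 1584) and no Xist UMI, while the liver and spleen libraries held Xist (5425 to 10553 UMIs) and no Y-chromosome UMI. In each comparison with lymph node the organ and this difference cannot be told apart. The T cell genes Cd3d, Cd3e and Cd3g were present in every library. Of the B cell genes Pax5, Ebf1 and Ms4a1 no UMI was found in the cells richest in members described below. Pairs of libraries shared 6 to 20 cell barcodes.

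A dividing cell first copies its DNA in S phase and then separates the copies in mitosis. The MCM helicase opens DNA at origins, the clamp protein PCNA holds the polymerases on the template, and enzymes such as ribonucleotide reductase and thymidylate synthase supply the nucleotides. S-phase genes are classically switched on by E2F transcription factors, whose sites hold words such as TTTGGCGC. Many genes of the later phases carry instead a cell cycle genes homology region (CHR, TTTGAA) and CCAAT boxes near their starts. Most iNKT cells of peripheral organs are resting, so transcripts of these genes are expected in few of them.

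These words were searched on both strands in RefSeq promoters (GRCm38.p6), from 250 bases before to 50 bases after the annotated start, which were given for 36 of the 43 members. A base could belong to more than 1 word. An E2F word (TTTGGCGC, TTTCCCGC, TTTCGCGC or TTTGCCGC) was present in 7 of 16 S-phase promoters (43.8%), in 1 of 18 mitotic promoters (5.56%, Cdk1) and in 2.61% of all 27025 genes with a promoter. The CHR word TTTGAA was present in 2 of 16 S-phase promoters (12.5%, Mcm2 and Cdc45), in 13 of 18 mitotic promoters (72.2%) and in 20.2% of all genes. CCAAT was present in 12 of 16 S-phase (75.0%), 16 of 18 mitotic (88.9%) and 41.1% of all promoters. A match is a description of the letters, not a site shown to be bound.

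E2F words of S-phase members are shown with their surroundings where the 30 bases lay before the start in both RefSeq and GENCODE vM21, 5′ to 3′ on the gene's strand and with the word in capitals. This left Mcm5 and Mcm6, and in Mcm5 and in the Mcm6 site farther from the start a further E2F word on the opposite strand overlaps the word in capitals.
Mcm5, chr8:75109345-75109374, plus strand: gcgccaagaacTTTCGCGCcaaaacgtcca
Mcm6, chr1:128359797-128359826, minus strand: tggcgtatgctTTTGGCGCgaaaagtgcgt
Mcm6, chr1:128359734-128359763, minus strand: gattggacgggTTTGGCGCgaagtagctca

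CHR words of mitotic members are shown in the same way, since most of the calls below fell in this group. TTCAAA is the same word read on the opposite strand.
Top2a, chr11:99024351-99024380, minus strand: ctattggtccatTTTGAAgattctcccgcc
Top2a, chr11:99024195-99024224, minus strand: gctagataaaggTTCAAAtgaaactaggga
Mki67, chr7:135716478-135716507, minus strand: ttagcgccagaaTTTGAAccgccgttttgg
Mki67, chr7:135716460-135716489, minus strand: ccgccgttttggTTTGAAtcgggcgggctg
Ccnb2, chr9:70421704-70421733, minus strand: cagggactagaaTTTGAAaataagactgta
Cdk1, chr10:69352966-69352995, minus strand: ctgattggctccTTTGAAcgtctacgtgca
Kif11, chr19:37376351-37376380, plus strand: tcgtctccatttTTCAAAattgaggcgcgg
Cdc20, chr4:118437353-118437382, minus strand: cgacggttaagacagttgggtTTTGAAgga
Smc2, chr4:52439064-52439093, plus strand: tcgctttccatgTTCAAAacggtatagtct

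S-phase members were described first. Their summed level was 1278 and 1341 CPM in the liver libraries, 1129 and 1599 CPM in the spleen libraries and 1191 and 1424 CPM in the lymph node libraries. The means were 1310 ± 44.8 in the liver, 1364 ± 332 in the spleen and 1308 ± 165 in the lymph node (SD, n = 2). The 3 organs overlapped, and the widest gap between libraries was inside the spleen.

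**Figure D1:**
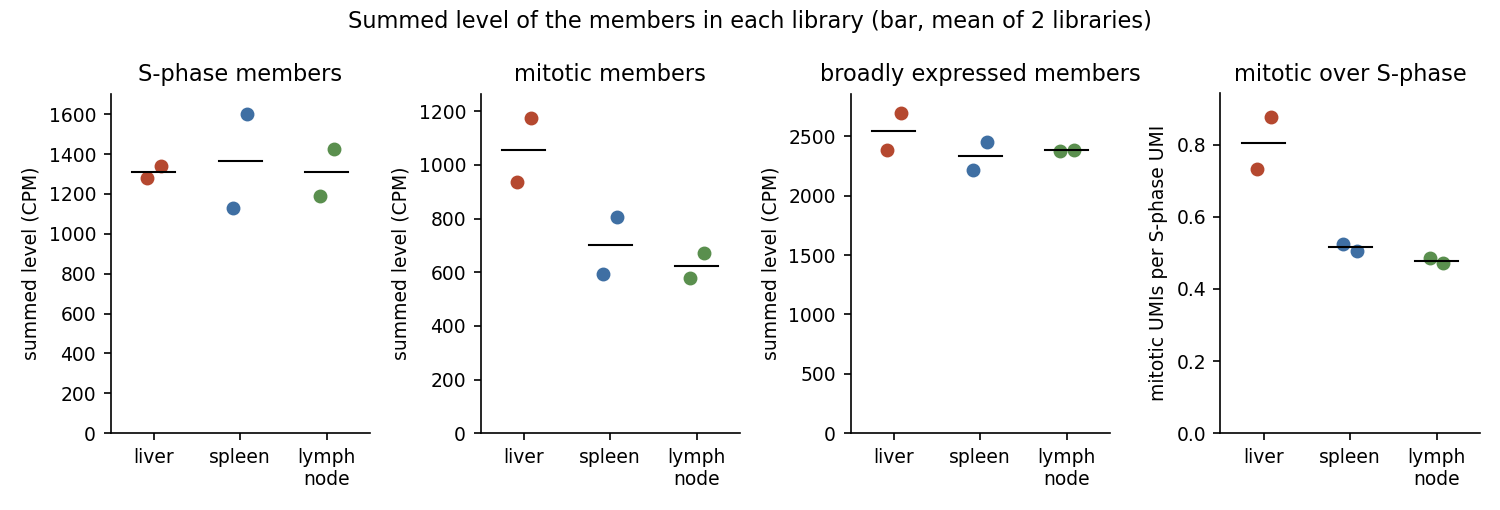
Summed level of the S-phase, mitotic and broadly expressed members in CPM and the ratio of mitotic to S-phase UMIs (vertical axes, from 0), with 1 point per library and a bar at the mean of the 2 libraries of an organ. The liver libraries sit at 937 and 1176 CPM for the mitotic members, above all 4 other libraries (579 to 807 CPM), while the S-phase members overlap between the organs.

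Of the 18 S-phase members, 2 were higher in liver than in spleen (Mcm2 and Mcm5) and 1 was lower (Slbp), where 12.7% of all genes tested were higher and 13% lower. Against lymph node, 3 were higher in liver (Mcm2, Mcm3 and Mcm5) and 1 was lower (Slbp), with 18% and 19.6% of all genes called. Between spleen and lymph node, 1 was higher in spleen (Mcm3) and 1 lower (Gins2), with 7.98% and 10.3% of all genes called. The median log2 fold change of the S-phase members was 0.04, 0.11 and 0.02 in these comparisons, beside medians over all genes tested of 0.02, 0.01 and 0.01. The sign of the members' medians turned with single libraries. Without spleen replicate 1 the medians of liver over spleen and spleen over lymph node were -0.18 and 0.29, and without spleen replicate 2 they were 0.28 and -0.29. The first was -0.04 without liver replicate 2, and without lymph node replicate 1 those of liver and spleen over lymph node were -0.02 and -0.09. These counts changed with single libraries. A fit without 1 library leaves 1 in that organ, and the share of all genes called changed between these fits as well. The counts below are given for how the calls rest on single libraries, and not as a result about the members. The number higher in liver than in spleen was 0 without spleen replicate 1, 1 without liver replicate 2 and 4 without spleen replicate 2. The number lower was 0 without liver replicate 1, 0 without spleen replicate 2 and 3 without spleen replicate 1. Against lymph node, the number higher in liver was 1 without liver replicate 2 and 1 without lymph node replicate 1. The number lower was 0 without liver replicate 1, 0 without lymph node replicate 2 and 2 without liver replicate 2. Between spleen and lymph node, 0 to 5 members were higher (0 without spleen replicate 2 or lymph node replicate 1, 5 without spleen replicate 1) and 0 to 2 lower (0 without spleen replicate 1 or either lymph node library, 2 without spleen replicate 2). Of all these calls, only that of Mcm5 in liver against lymph node was kept in each of the 6 fits that left out 1 library. DESeq2 called neither comparison of Mcm2 (adjusted p = 0.184 and 0.0764) nor of Mcm3 (0.0741 and 0.103), nor Gins2 (0.127) or Slbp over lymph node (0.0648). Slbp over lymph node was not called in sums of thinned cells either (0.0691, edgeR), nor Mcm2 over spleen with libraries thinned to one total (0.0569, edgeR).

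The MCM helicase is a ring of 6 related subunits, Mcm2 to Mcm7, of which 3 were called in at least 1 comparison. Mcm5 was at 55.2 and 56.4 CPM in the liver, 24.0 and 37.0 in the spleen and 29.5 and 33.2 in the lymph node, so that both liver libraries lay above the other 4. Its log2 fold change was 0.79 (SE 0.17, adjusted p = 0.000845, edgeR) over spleen and 0.77 (SE 0.17, adjusted p = 0.000502, edgeR) over lymph node, and without spleen replicate 1 the first was 0.49 with an adjusted p of 0.0585. Mcm2 was at 56.7 and 63.0 CPM in the liver, 39.6 and 44.9 in the spleen and 36.6 and 45.4 in the lymph node. Its log2 fold changes were 0.42 over spleen (adjusted p = 0.0352, edgeR) and 0.49 over lymph node (adjusted p = 0.0102, edgeR). Neither Mcm2 call held without liver replicate 2 (adjusted p = 0.174 and 0.0876), nor the first without spleen replicate 1 (0.238) and the second without lymph node replicate 1 (0.178). Mcm3 was lowest in lymph node, at 29.3 and 43.5 CPM against 52.3 and 58.0 in liver and 46.4 and 60.0 in spleen. Its log2 fold changes over lymph node were 0.54 for liver (adjusted p = 0.0140, edgeR) and 0.57 for spleen (adjusted p = 0.0251, edgeR). Both calls were lost without lymph node replicate 1 (adjusted p = 0.292 and 0.361), the first also without liver replicate 2 (0.0971) and the second without spleen replicate 2 (0.294). Mcm4, Mcm6 and Mcm7 were called in no comparison, with log2 fold changes between -0.27 (Mcm4, liver over lymph node) and 0.16 (Mcm7, liver over spleen).

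Slbp, the stem-loop binding protein that processes histone mRNA, had the most UMIs of the S-phase members. It was at 240 and 258 CPM in the liver, 295 and 359 in the spleen and 281 and 321 in the lymph node, so that both liver libraries lay below the rest. The log2 fold change of liver was -0.48 over spleen (SE 0.12, adjusted p = 0.00444, edgeR) and -0.33 over lymph node (SE 0.12, adjusted p = 0.0304, edgeR). Spleen over lymph node was 0.14 (SE 0.12, adjusted p = 0.484, edgeR). The first call was lost without liver replicate 1 (adjusted p = 0.0742) or spleen replicate 2 (0.190). The second was lost without liver replicate 1 (0.204) or lymph node replicate 2 (0.287).

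Pcna, the sliding clamp, was at 154 and 183 CPM in the liver, 162 and 198 in the spleen and 186 and 202 in the lymph node. Its log2 fold changes were -0.17 (SE 0.13, adjusted p = 0.330, edgeR), -0.26 (SE 0.13, adjusted p = 0.102, edgeR) and -0.09 (SE 0.13, adjusted p = 0.697, edgeR), in the order of liver with spleen, liver with lymph node and spleen with lymph node that is kept below wherever 3 values are given. Pcna was called lower in liver than in lymph node without liver replicate 2 (adjusted p = 0.0246, edgeR). Where 2 values are given below, they are liver over spleen and liver over lymph node. 2810417H13Rik (named Pclaf in RefSeq), a PCNA-binding factor, was at 159 and 168 CPM in the liver, 133 and 266 in the spleen and 144 and 205 in the lymph node. The spleen libraries alone spanned the values of all others. The log2 fold changes were -0.37 (SE 0.44, adjusted p = 0.614, edgeR), -0.15 (SE 0.44, adjusted p = 0.823, edgeR) and 0.22 (SE 0.45, adjusted p = 0.815, edgeR). Rrm2, the regulatory subunit of ribonucleotide reductase, showed the same split of the spleen, at 61.8 and 124 CPM. Without spleen replicate 1, 2810417H13Rik (-0.80, adjusted p = 0.000248, edgeR) and Rrm2 (-0.88, adjusted p = 0.00108, edgeR) were called lower in liver than in spleen.

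The other nucleotide enzymes were not called at the main settings. Tk1, thymidine kinase, was at 29.9 and 27.0 CPM in the liver, 10.2 and 24.1 in the spleen and 19.2 and 18.5 in the lymph node, with a log2 fold change of 0.66 over spleen (adjusted p = 0.0813, edgeR). Without spleen replicate 2 that of Tk1 was 1.43 (adjusted p = 0.000129, edgeR). It was also called over spleen without the filter on low counts (0.00484), in thinned cells (0.0357) and without the cell filter (0.0466). Over lymph node Tk1 was called without the filter on low counts (0.57, adjusted p = 0.0179, edgeR). Its log2 fold change for spleen over lymph node was -0.13, and -0.89 without spleen replicate 2. Tyms, thymidylate synthase, and Dut, which removes dUTP, had log2 fold changes over spleen of -0.11 and 0.04. Without spleen replicate 2 that of Dut was 0.46 (adjusted p = 0.0348, edgeR), and without spleen replicate 1 Dut (0.44, adjusted p = 0.0392, edgeR) and Tyms (0.55, adjusted p = 0.0363, edgeR) were called higher in spleen than in lymph node. Gins2, a subunit of the GINS complex that works with the helicase, was at 12.8 and 13.4 CPM in the liver, 7.56 and 10.1 in the spleen and 16.8 and 15.2 in the lymph node. Spleen over lymph node was -0.84 (adjusted p = 0.0195, edgeR), which was lost without spleen replicate 1 (adjusted p = 0.204), lymph node replicate 1 (0.137) or lymph node replicate 2 (0.0627). Cdc6 and Cdc45, which load and activate the helicase, and Uhrf1, which maintains DNA methylation behind the fork, were at 4.06 to 15.7 CPM and not called.

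The summed mitotic members were highest in the liver libraries. Their summed level was 937 and 1176 CPM in the liver libraries, 592 and 807 CPM in the spleen libraries and 579 and 670 CPM in the lymph node libraries. The means were 1057 ± 169 in the liver, 700 ± 152 in the spleen and 624 ± 64.7 in the lymph node (SD, n = 2), and both liver libraries lay above the other 4. Spleen and lymph node overlapped. Per S-phase UMI of the same library there were 0.734 and 0.877 mitotic UMIs in liver, 0.525 and 0.505 in the spleen and 0.486 and 0.471 in the lymph node, a ratio in which the library totals cancel and in which each organ held a range of its own.

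Of the 22 mitotic members, 12 were higher in liver than in spleen and none lower, against the 12.7% and 13% of all genes. The median log2 fold change of the 22 was 0.69, beside 0.02 over all genes, and 20 of 22 were above 0. It was 0.39 without liver replicate 2 and 0.42 without spleen replicate 1. Over lymph node, 15 were higher in liver and none lower, against 18% and 19.6% of all genes, with a median of 0.93 and all 22 above 0. Spleen exceeded lymph node in 2 members (Top2a and Mki67) and fell below it in none, with a median of 0.23. That count is near the 7.98% of all genes called higher there. Without spleen replicate 2 the median was -0.09 with 8 of 22 above 0, and it was 0.56 without spleen replicate 1 and 0.10 without lymph node replicate 1. At an unadjusted p below 0.05, edgeR placed 14 higher and 0 lower for liver over spleen, 16 and 0 for liver over lymph node, and 2 and 1 for spleen over lymph node. At that threshold 18.6% of all genes were higher and 19.1% lower, 22.5% and 23.6%, and 13.7% and 15.8%. DESeq2 called 6, 14 and 2 higher and 0 lower at an adjusted p below 0.05, and 5.84%, 10.7% and 4.37% of all genes higher. Over spleen it did not call Mki67 (adjusted p = 0.0863), Ccnb2 (0.107), Cenpa (0.0879), Cenpe (0.164), Tpx2 (0.149) or Bub1b (0.0684), and over lymph node it did not call Kif11 (0.0853) or Smc2 (0.110). The count for liver over spleen rested on particular libraries, being 3 without liver replicate 2, near the 11.0% of all genes called higher in that fit, and 5 without spleen replicate 1, beside 9.44%. The count for liver over lymph node was 11 without liver replicate 2 and 10 without lymph node replicate 1, beside 15.6% and 12.6% of all genes. That for spleen over lymph node was 1 without spleen replicate 2, 1 without lymph node replicate 1 and 0 without lymph node replicate 2, with 1 member (Cenpa) lower without either liver library. The calls kept in each of the 6 fits that left out 1 library were those of Ccna2 and Cenpf for liver over spleen. For liver over lymph node they were those of Ccna2, Cenpf, Mki67, Aurkb, Tpx2, Cdk1, Ccnb2 and Birc5. No call was kept for spleen over lymph node. The share of all genes that kept their call was not set beside these.

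**Figure D2:**
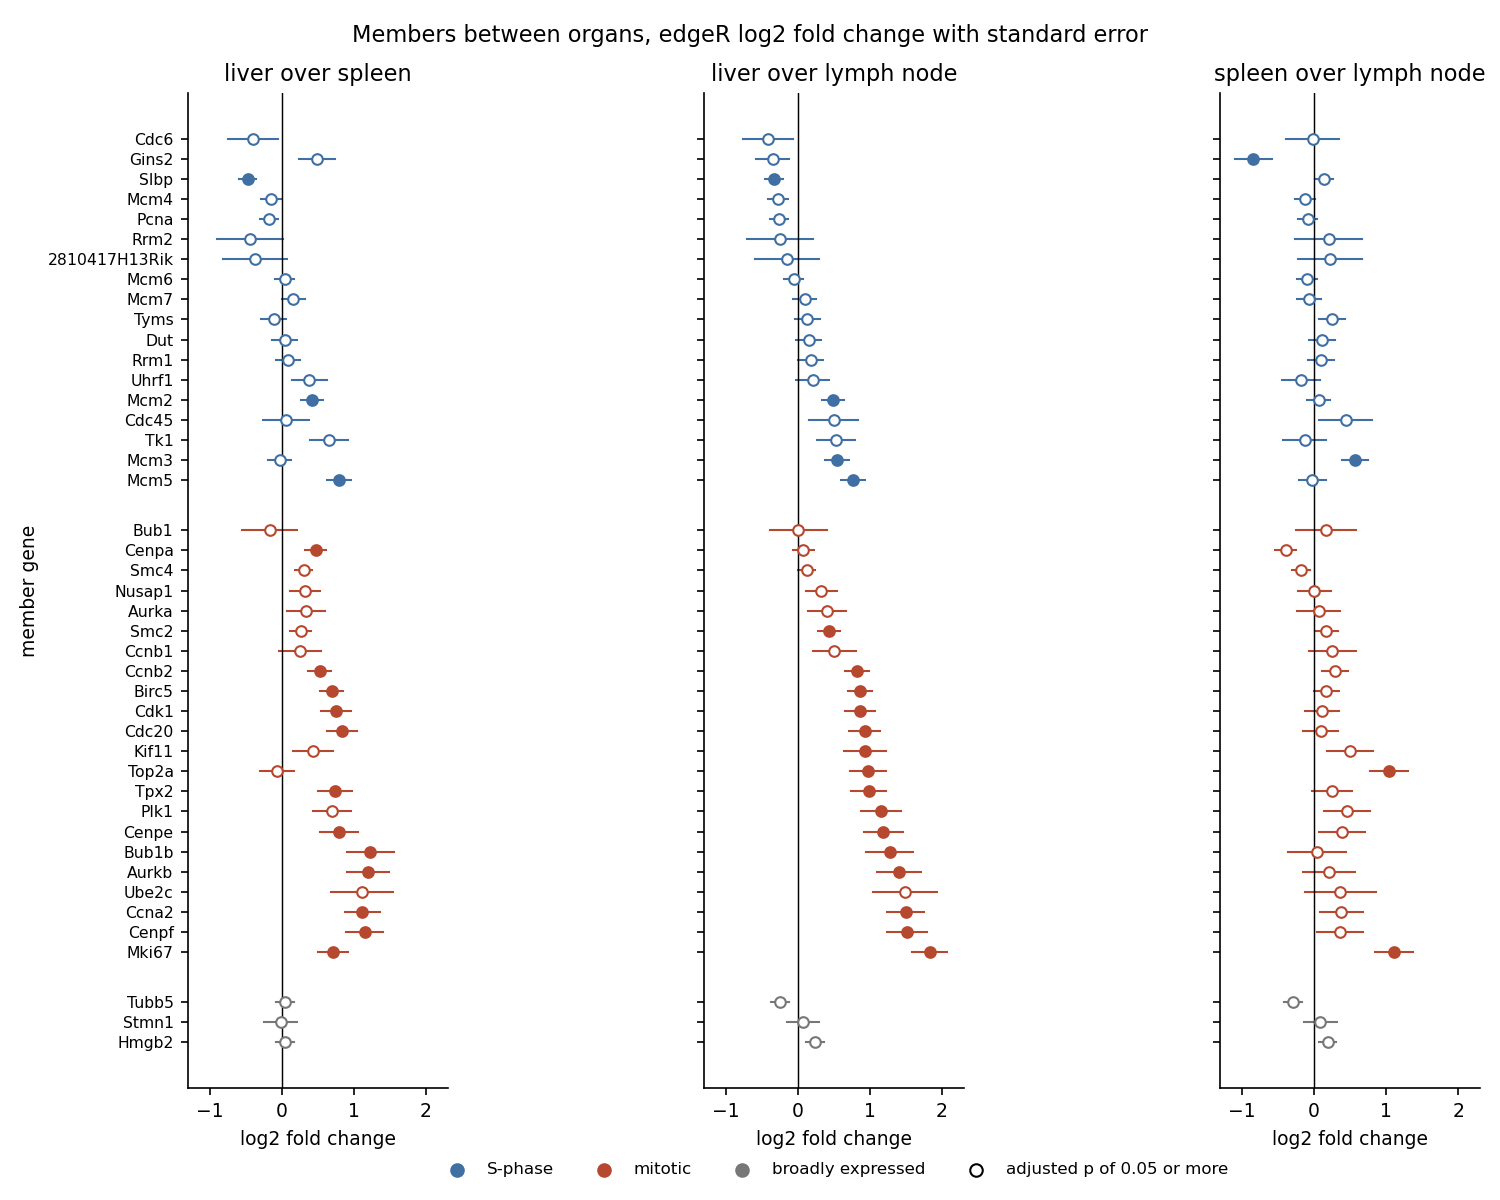
Log2 fold change of each member (horizontal axis) with its standard error for liver over spleen, liver over lymph node and spleen over lymph node, in rows by role. Filled points have an adjusted p below 0.05 (edgeR), and the mitotic members lie to the right of 0 in 20, 22 and 20 of 22 rows (8 for the third without spleen replicate 2) while the S-phase members lie on both sides.

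Mki67, the gene of the Ki-67 protein that coats mitotic chromosomes, showed the widest gap of any member. It was at 43.3 and 44.1 CPM in the liver, 17.5 and 33.1 in the spleen and 13 and 10.5 in the lymph node. Its log2 fold change was 1.83 for liver over lymph node (SE 0.24, adjusted p = 2.46e-06, edgeR), 0.71 for liver over spleen (SE 0.21, adjusted p = 0.0163, edgeR) and 1.12 for spleen against lymph node (SE 0.26, adjusted p = 0.00416, edgeR). The liver to spleen call was lost without liver replicate 1 (adjusted p = 0.0621), liver replicate 2 (0.0642) or spleen replicate 1 (0.319). The spleen to lymph node call was lost without spleen replicate 2 (0.182) or lymph node replicate 2 (0.104).

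Top2a, the topoisomerase that untangles chromosomes, followed another order. It was at 88.8 and 110 CPM in the liver, 75.6 and 120 in the spleen and 42.3 and 54.5 in the lymph node, so that liver and spleen overlapped and lymph node lay below both. The log2 fold change was -0.06 for liver over spleen (SE 0.24, adjusted p = 0.880, edgeR), 0.98 for liver over lymph node (SE 0.25, adjusted p = 0.0178, edgeR) and 1.04 for spleen against lymph node (SE 0.26, adjusted p = 0.0288, edgeR). The second was lost without liver replicate 2 (adjusted p = 0.0595) or lymph node replicate 1 (0.0902). The third was lost without lymph node replicate 1 (0.131), lymph node replicate 2 (0.0547) or the cells with the top doublet scores (0.0514).

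Of the cyclins and their kinase, Ccna2, Ccnb2 and Cdk1 were called and Ccnb1 was not. Ccna2, cyclin A2 of S phase and G2, was at 31.2 and 38.3 CPM in the liver, 11.0 and 19.4 in the spleen and 8.67 and 15.0 in the lymph node. Its log2 fold change was 1.12 over spleen (SE 0.25, adjusted p = 0.00233, edgeR) and 1.50 over lymph node (SE 0.26, adjusted p = 9.8e-05, edgeR). Ccnb2, a B-type cyclin, was at 44.3 and 53.7 CPM in liver against 33.4 and 30.9 in the spleen and 27.1 and 26.0 in the lymph node, with log2 fold changes of 0.53 (adjusted p = 0.0135, edgeR) and 0.82 (adjusted p = 0.000135, edgeR). The first of these was lost without liver replicate 2 (adjusted p = 0.147) or spleen replicate 2 (0.0827). Cdk1, the kinase that these cyclins activate, was at 36.3 and 48.2 CPM in the liver, 18.3 and 29.2 in the spleen and 20.6 and 23.8 in the lymph node. Both liver libraries lay above the rest. The log2 fold changes over spleen and lymph node were 0.76 (adjusted p = 0.00895, edgeR) and 0.87 (adjusted p = 0.00188, edgeR). The first was lost without liver replicate 2 (0.100) or spleen replicate 1 (0.156). Ccnb1 had a wide spread within liver, at 18.8 and 33.3 CPM, and log2 fold changes of 0.25 and 0.50 that were not called (adjusted p = 0.572 and 0.208, edgeR). Ccnb1 was called over lymph node without liver replicate 1 (0.00701), without the filter on low counts (0.0303) and without the cell filter (0.0325).

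Among the kinetochore and centromere genes, Cenpf and Cenpe, which link chromosomes to microtubules, were higher in liver. Cenpf was at 30.2 and 40.1 CPM in the liver, 9.91 and 20.2 in the spleen and 13.3 and 10.2 in the lymph node. Its log2 fold change was 1.15 over spleen (SE 0.26, adjusted p = 0.00415, edgeR) and 1.51 over lymph node (SE 0.27, adjusted p = 0.000286, edgeR). Cenpe was at 17.0 and 19.6 CPM in the liver, 7.56 and 12.3 in the spleen and 5.42 and 9.96 in the lymph node, with log2 fold changes of 0.80 (SE 0.26, adjusted p = 0.0245, edgeR) and 1.19 (SE 0.27, adjusted p = 0.000957, edgeR). The first was lost without liver replicate 2 (adjusted p = 0.124) or spleen replicate 1 (0.293), and the second without lymph node replicate 1 (0.0606). Cenpa, the histone H3 variant of the centromere, had a different order, at 81.9 and 110 CPM in the liver, 62.1 and 68.7 in the spleen and 88.6 and 85.5 in the lymph node. It was called over spleen (0.47, SE 0.14, adjusted p = 0.0159, edgeR) and not over lymph node (0.08, SE 0.14, adjusted p = 0.691, edgeR). The call was lost without liver replicate 2 (0.285) or spleen replicate 1 (0.125). Both spleen libraries lay below both lymph node libraries (-0.39, SE 0.15, adjusted p = 0.0656, edgeR). Cenpa was called lower there without liver replicate 1 (0.0280) or 2 (0.0295), without the filter on low counts (0.0352), in thinned cells (0.0307) and without the cell filter (0.0463).

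Of the Aurora and Polo kinases and the spindle checkpoint genes, Aurkb, Bub1b and Plk1 were called. Aurkb, the kinase of the chromosomal passenger complex, was at 20.2 and 20.7 CPM in the liver, 4.43 and 12.6 in the spleen and 7.58 and 7.20 in the lymph node. Its log2 fold change was 1.19 over spleen (SE 0.30, adjusted p = 0.00506, edgeR), lost without spleen replicate 1 (adjusted p = 0.130), and 1.40 over lymph node (SE 0.30, adjusted p = 0.00083, edgeR). Birc5, survivin of the same complex, was at 82.2 and 116 CPM in the liver, 53.0 and 62.8 in the spleen and 50.7 and 53.7 in the lymph node. Liver again overlapped with neither organ, with log2 fold changes over spleen and lymph node of 0.69 (SE 0.16, adjusted p = 0.00271, edgeR), lost without liver replicate 2 (adjusted p = 0.0607), and 0.86 (SE 0.16, adjusted p = 0.000169, edgeR). Bub1b, a checkpoint protein that holds back anaphase, rested on 15 to 82 UMIs per library and was at 8.69 and 13.6 CPM in the liver, 4.43 and 4.49 in the spleen and 4.06 and 4.71 in the lymph node. The spleen and lymph node libraries lay close together. The log2 fold changes of liver over them were 1.23 (SE 0.32, adjusted p = 0.00548, edgeR) and 1.27 (SE 0.33, adjusted p = 0.00232, edgeR). Both were lost without liver replicate 2 (adjusted p = 0.101 and 0.0689). Plk1, Polo-like kinase, was at 12.1 and 18.6 CPM in the liver, 8.35 and 9.53 in the spleen and 6.23 and 6.92 in the lymph node. It was called over lymph node (1.15, SE 0.28, adjusted p = 0.00138, edgeR) but not without liver replicate 2 (adjusted p = 0.0562). Over spleen its log2 fold change was 0.69 (adjusted p = 0.0514, edgeR), and Plk1 was called there without liver replicate 1 (0.0181) and without the filter on low counts (0.0327), the cell filter (0.0170) or the cells with the top doublet scores (0.0497). Bub1, the related checkpoint kinase, and Aurka, which acts at the spindle poles, were called in no comparison, with log2 fold changes over spleen of -0.16 and 0.33.

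Genes of the exit from mitosis and of the spindle followed, with Cdc20, Tpx2 and Kif11 called. Cdc20, the activator of the anaphase-promoting complex, was at 34.2 and 45.9 CPM in the liver, 17.7 and 24.7 in the spleen and 16.0 and 24.4 in the lymph node. Spleen and lymph node overlapped below liver. The log2 fold changes were 0.84 (adjusted p = 0.00572, edgeR) and 0.93 (adjusted p = 0.00143, edgeR). They were lost without liver replicate 2 (0.0721) or spleen replicate 1 (0.0783) for the first and without lymph node replicate 1 (0.0511) for the second. Ube2c, the ubiquitin-conjugating enzyme of the same complex, was at 71.4 and 116 CPM in the liver, 32.9 and 49.1 in the spleen and 24.7 and 39.9 in the lymph node. Although liver overlapped with neither other organ and the log2 fold changes were 1.12 and 1.48, it was not called (adjusted p = 0.157 and 0.0753, edgeR). DESeq2 called Ube2c over lymph node (adjusted p = 0.0100). With edgeR it was called over both organs without the filter on low counts (0.0149 and 0.00209), with libraries thinned to one total (0.0378 and 0.00895), without the cell filter (0.0271 and 0.00718) and without liver replicate 1 (0.00257 and 0.000214), and over lymph node without liver replicate 2 (0.00596).

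Tpx2, a spindle assembly factor, was at 19.8 and 20.4 CPM in liver against 8.87 and 14.0 in the spleen and 8.94 and 10.5 in the lymph node, with log2 fold changes of 0.73 (adjusted p = 0.0194, edgeR) and 0.98 (adjusted p = 0.00144, edgeR). The first was lost without liver replicate 1 (adjusted p = 0.0596), liver replicate 2 (0.0731) or spleen replicate 1 (0.298). Kif11, the kinesin that pushes spindle poles apart, was called over lymph node (0.93, adjusted p = 0.0117, edgeR) but not without liver replicate 2 (0.167) or lymph node replicate 1 (0.237). Nusap1, which bundles spindle microtubules, was not called at the main settings, with log2 fold changes of 0.32 and 0.33, but was over spleen without spleen replicate 2 (0.66, adjusted p = 0.0395, edgeR).

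Smc2 and Smc4 are the condensin subunits that compact chromosomes. Smc4 had the most UMIs of the group and was at 138 and 138 CPM in the liver, 99.1 and 112 in the spleen and 115 and 129 in the lymph node. The liver libraries lay highest and the spleen libraries lowest. The log2 fold changes of this gene were 0.30 (SE 0.12, adjusted p = 0.0611, edgeR), 0.12 (SE 0.12, adjusted p = 0.447, edgeR) and -0.18 (SE 0.12, adjusted p = 0.348, edgeR). Smc4 was called over spleen without the filter on low counts (0.0362) and without the cell filter (0.0416). Smc2 was called over lymph node (0.43, adjusted p = 0.0245, edgeR), but not without liver replicate 2 (adjusted p = 0.148), lymph node replicate 1 (0.168) or lymph node replicate 2 (0.0886). Over spleen Smc2 was called without spleen replicate 2 (0.59, adjusted p = 0.0141, edgeR).

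The broadly expressed members held more UMIs than both other groups together and were not called at the main settings. At an unadjusted p below 0.05 edgeR placed 1 of them lower in spleen than in lymph node, and DESeq2 called 0. Calls appeared at other settings. Tubb5 was lower in spleen than in lymph node without liver replicate 1 (adjusted p = 0.0439, edgeR) or liver replicate 2 (0.0442), and lower in liver than in lymph node without liver replicate 2 (-0.41, adjusted p = 0.0153, edgeR). Stmn1 was higher in spleen than in lymph node without spleen replicate 1 (0.43, adjusted p = 0.0441, edgeR). Hmgb2, a chromatin protein of dividing and some resting lymphocytes, was at 1323 and 1460 CPM in the liver, 1232 and 1315 in the spleen and 1155 and 1111 in the lymph node. Hmgb2 lay highest in liver and lowest in lymph node, with log2 fold changes of 0.05 (SE 0.12, adjusted p = 0.813, edgeR), 0.24 (SE 0.12, adjusted p = 0.129, edgeR) and 0.19 (SE 0.12, adjusted p = 0.321, edgeR). Tubb5, a beta-tubulin, was at 794 and 954 CPM in the liver, 787 and 813 in the spleen and 980 and 1013 in the lymph node. Tubb5 lay highest in both lymph node libraries. The log2 fold changes of this gene were 0.05 (SE 0.12, adjusted p = 0.813, edgeR), -0.25 (SE 0.12, adjusted p = 0.113, edgeR) and -0.30 (SE 0.12, adjusted p = 0.0987, edgeR). Reads of tubulin genes with near-identical stretches may be shared. Stmn1, stathmin, which destabilises microtubules, was at 266 and 287 CPM in the liver, 198 and 330 in the spleen and 242 and 264 in the lymph node, with log2 fold changes of -0.02 (SE 0.23, adjusted p = 0.967, edgeR), 0.07 (SE 0.23, adjusted p = 0.842, edgeR) and 0.08 (SE 0.23, adjusted p = 0.854, edgeR).

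How the members were spread over single cells was described next, without tests, since the cells were chosen by the members themselves. Each cell was thinned at random to 800 retained UMIs, so that deep and shallow cells could be compared, which left 15019 cells (80.6% to 99.8% of a library). A cell with at least 3 UMIs of S-phase members was called S-phase-rich, and a cell with at least 3 UMIs of mitotic members mitosis-rich. These are ranges on a count and not cell types. On the S-phase side 1485 cells lay at 2 UMIs and 393 at 3, and on the mitotic side 355 lay at 2 and 79 at 3. On both sides more cells lay at 2 UMIs than at 3, so a limit of 2 would nearly double the mitosis-rich cells and more than double the S-phase-rich ones. In all, 812 cells were S-phase-rich, 360 mitosis-rich and 201 both, and 971 (6.47%) were either.

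S-phase-rich cells made up 5.87% and 6.34% of the liver libraries, 3.63% and 6.37% of the spleen libraries and 4.33% and 5.75% of the lymph node libraries. Spleen overlapped with both other organs, and both liver libraries lay above both lymph node libraries, with means of 6.10% ± 0.333, 5.00% ± 1.94 and 5.04% ± 1.01 (SD, n = 2). The exact binomial 95% intervals of liver replicate 1 (5.02% to 6.80%) and lymph node replicate 2 (4.83% to 6.78%) overlapped. This order of liver and lymph node was lost at other settings. With a limit of 2 UMIs liver replicate 1 (15.38%) lay below lymph node replicate 2 (15.51%). With a limit of 5 liver replicate 2 (1.99%) lay below it (2.05%), and without the cell filter both liver libraries did (5.56% and 6.29% against 6.36%). Mitosis-rich cells made up 3.08% and 3.55% of the liver libraries, 1.63% and 2.36% of the spleen libraries and 1.53% and 1.92% of the lymph node libraries. Here both liver libraries lay above the rest, with means of 3.31% ± 0.334, 2.00% ± 0.515 and 1.72% ± 0.274 (SD, n = 2), although the exact binomial 95% intervals of liver replicate 1 (2.47% to 3.79%) and spleen replicate 2 (1.79% to 3.06%) overlapped. Without thinning, the same limits gave 25.4%, 11.7% and 11.5% S-phase-rich and 8.84%, 3.41% and 3.15% mitosis-rich cells in liver, spleen and lymph node, in cells whose median depth was 2325 and 1915 retained UMIs in liver and 1119 to 1247 in the other libraries.

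**Figure D3:**
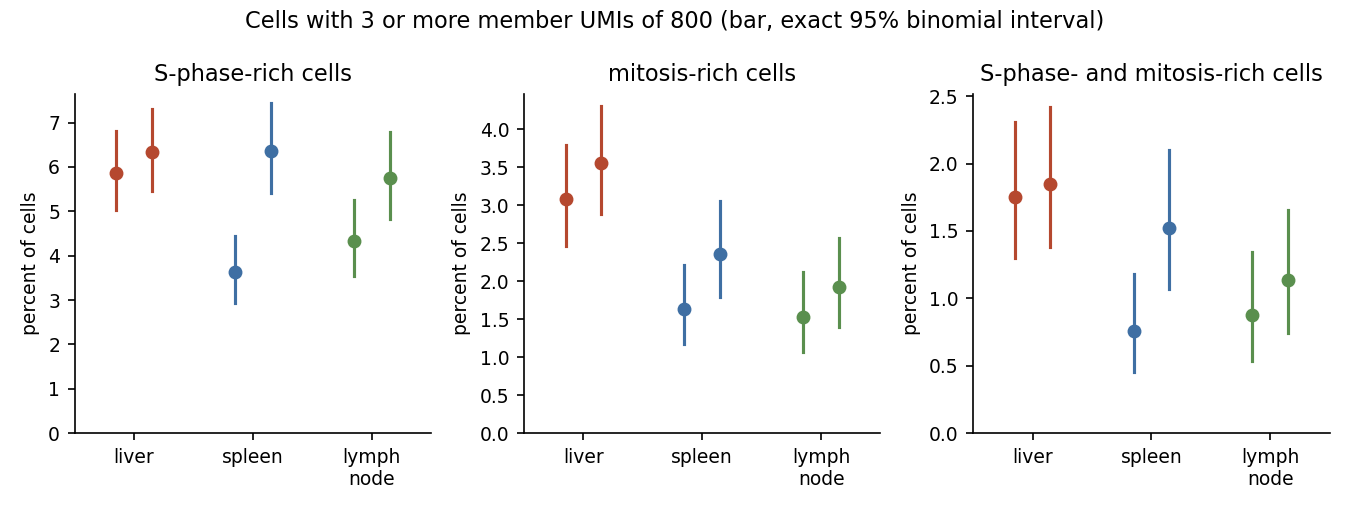
Percent of cells (vertical axes, from 0) that were S-phase-rich, mitosis-rich or both in each library, among cells thinned to 800 UMIs. Points are libraries, bars are exact 95% binomial intervals that cover counting error only, and the 2 liver libraries hold the highest mitosis-rich shares at 3.08% and 3.55%.

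Rich cells held more UMIs than other cells. Their median retained UMI count before thinning was 1.66 ± 0.328 times that of the other cells in liver, 1.85 ± 0.351 times in spleen and 1.72 ± 0.164 times in lymph node (SD, n = 2), and with a limit of 5 UMIs the ratios were 2.75 ± 0.201, 3.52 ± 0.206 and 2.93 ± 0.129. Of the rich cells, 0.667% to 3.51% per library were among the 2% of cells with the highest doublet score. A mitosis-rich cell held on average 7.37 ± 1.20 mitotic UMIs of 800 in the liver, 6.37 ± 0.488 in the spleen and 6.42 ± 1.20 in the lymph node, ranges that overlapped. The cells that were neither kind held 0.240 ± 0.0137 mitotic UMIs in the liver, 0.189 ± 0.0106 in the spleen and 0.205 ± 0.0114 in the lymph node, with both liver libraries above the rest. Their S-phase UMIs were 0.539 ± 0.00761, 0.562 ± 0.0307 and 0.540 ± 0.0220 per cell.

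Summing thinned cells gives every cell the same weight. In such sums 20 mitotic members passed the filter on low counts, 6 were called higher in liver than in spleen and 8 higher than in lymph node, with medians of 0.66 and 0.95 beside the 0.69 and 0.93 of the full sums. Of all genes tested in these sums, 9.07% and 14.5% were called higher. The calls of Mki67 (adjusted p = 0.119, edgeR), Ccnb2 (0.0701), Cenpa (0.120), Cenpe (0.182), Aurkb (0.0977) and Cdc20 (0.114) over spleen were lost here, and Bub1 and Bub1b were not tested. The 6 calls over spleen hold 5 kept ones (Ccna2, Cenpf, Cdk1, Birc5 and Tpx2) and a new one, Nusap1 (0.80, adjusted p = 0.0339, edgeR). Lost as well were those of Cenpe (0.660), Tpx2 (0.0728), Kif11 (0.0528), Plk1 (0.0706), Cdc20 (0.0580) and Smc2 (0.154) over lymph node, and that of Mki67 between spleen and lymph node (0.0796). These sums hold fewer UMIs, and the part of this in the lost calls was not tested.

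The share of each member's UMIs that lay in rich cells was then taken, with the member itself left out of the count that defines the cells. Rich cells were 4.78% to 6.47% of all cells by this definition. For the S-phase members the share ran from 9.93% (Slbp) to 77.7% (2810417H13Rik), with a median of 28.1%. For the mitotic members it ran from 18.1% (Smc4) to 79.0% (Nusap1), with a median of 60.7%. Within libraries the share ran from 5.21% to 12.5% for Slbp, 69.9% to 81.9% for 2810417H13Rik, 10.3% to 30.4% for Smc4, 69.8% to 86.0% for Nusap1 and 11.5% to 51.7% for Cenpa. Smc4 was the lowest mitotic member in 6 of 6 libraries, while Nusap1 was the highest in 0 of 6. Many members were mostly counted outside the rich cells, among them Slbp, Pcna (14.2%), Smc4 and Hmgb2 (24.5%). Of the cells outside, 18.1% had at least 1 UMI of Slbp, 10.4% of Pcna, 6.57% of Smc4 and 45.5% of Hmgb2. No cell type that lacks these genes was present, so no background share could be set beside these values.

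**Figure D4:**
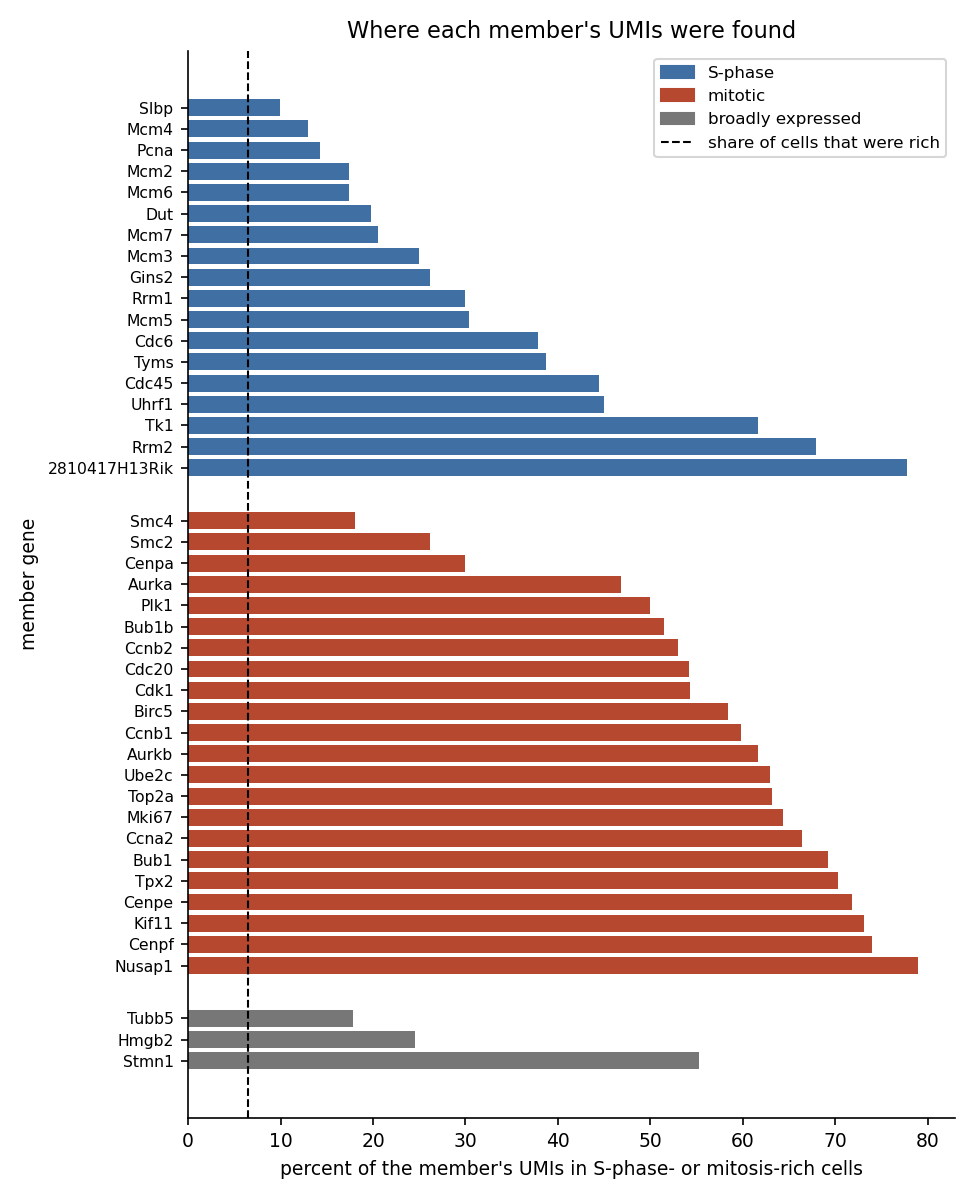
Percent of each member's UMIs found in rich cells (horizontal axis, from 0), over all 6 libraries after thinning to 800 UMIs, with members in rows by role and the member itself left out of the definition. The dashed line marks the 6.47% of cells that were rich, and the S-phase bars run from 9.93% to 77.7% and the mitotic bars from 18.1% to 79.0%.

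Within the S-phase group the members split by where in the rich cells they lay. Of the rich-cell UMIs of the nucleotide enzymes, mitosis-rich cells held 68.9% for Tyms, 65.2% for Rrm2, 63.6% for Rrm1 and 61.1% for Tk1, and for Dut a share closer to even, at 51.6%. Of those of the helicase subunits they held 22.2% (Mcm2), 26.6% (Mcm6), 27.8% (Mcm7), 30.1% (Mcm3), 32.9% (Mcm4) and 38.9% (Mcm5). The other S-phase members lay between 35.7% (Cdc6) and 54.2% (Cdc45), with Pcna at 40.1%, except for 2810417H13Rik at 75.0%. By the same definitions mitosis-rich cells were 37.2% to 50.1% of the rich cells for the S-phase members. The share of UMIs lay below the share of cells in 6 of 6 libraries for Mcm2, Mcm6 and Mcm7, in 5 for Mcm3 and in 3 each for Mcm4 and Mcm5. It did so in 5 for Slbp, in 4 for Pcna, in 2 each for Gins2, Cdc6 and Cdc45 and in 1 for Uhrf1. For Tyms, Rrm1, Rrm2, Tk1, Dut and 2810417H13Rik it did so in 0 of 6. The mitotic members had 73.0% (Smc2) to 96.6% (Tpx2) of their rich-cell UMIs in mitosis-rich cells, with Top2a at 78.3% and Mki67 at 88.9%. Of the broadly expressed members, Stmn1 had 55.2% of its UMIs in rich cells, Hmgb2 24.5% and Tubb5 17.8%. A UMI of Stmn1 was found in 4.83% of the other cells, fewer than for Slbp, Pcna, Dut (6.88%) or Smc4, beside 45.5% for Hmgb2 and 38.7% for Tubb5.

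The bases before the annotated start of the members most concentrated in rich cells, among those with a promoter given, are shown for each role as the sequence context of these genes, from RefSeq (GRCm38.p6), 5′ to 3′ on the gene's strand. Capitals mark words of E2F, CHR or CCAAT. The stretches of 2810417H13Rik and Rrm2 end before the start that GENCODE vM21 gives, so the E2F word of 2810417H13Rik that lies nearer its RefSeq start is not in the stretch shown.
2810417H13Rik, chr9:65890073-65890236, plus strand: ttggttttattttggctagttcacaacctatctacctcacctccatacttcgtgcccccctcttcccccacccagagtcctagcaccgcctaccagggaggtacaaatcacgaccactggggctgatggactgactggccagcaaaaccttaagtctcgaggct
Rrm2, chr12:24708004-24708240, plus strand: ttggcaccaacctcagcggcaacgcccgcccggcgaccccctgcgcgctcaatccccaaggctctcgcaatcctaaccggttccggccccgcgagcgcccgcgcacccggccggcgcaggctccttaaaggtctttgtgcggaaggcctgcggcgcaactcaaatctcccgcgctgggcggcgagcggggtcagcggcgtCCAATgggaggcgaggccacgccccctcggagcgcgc
Nusap1, chr2:119618048-119618297, plus strand: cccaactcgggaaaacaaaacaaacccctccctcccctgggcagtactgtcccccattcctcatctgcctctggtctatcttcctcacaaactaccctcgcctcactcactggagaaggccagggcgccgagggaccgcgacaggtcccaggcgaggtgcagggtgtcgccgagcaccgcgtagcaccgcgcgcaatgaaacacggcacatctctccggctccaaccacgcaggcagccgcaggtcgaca
Cenpf, chr1:189688087-189688336, minus strand: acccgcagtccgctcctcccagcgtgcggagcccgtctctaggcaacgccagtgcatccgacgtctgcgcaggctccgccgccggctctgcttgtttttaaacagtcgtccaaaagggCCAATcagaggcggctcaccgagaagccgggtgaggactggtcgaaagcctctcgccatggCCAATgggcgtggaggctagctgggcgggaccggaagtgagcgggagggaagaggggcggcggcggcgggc
Hmgb2, chr8:57511593-57511842, plus strand: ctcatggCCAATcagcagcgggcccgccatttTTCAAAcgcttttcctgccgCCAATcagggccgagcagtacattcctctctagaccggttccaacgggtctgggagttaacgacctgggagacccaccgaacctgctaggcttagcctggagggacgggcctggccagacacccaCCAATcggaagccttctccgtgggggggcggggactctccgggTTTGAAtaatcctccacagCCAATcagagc
Nusap1, which had the highest share of the mitotic members in rich cells over the 6 libraries together, held none of the 3 kinds of word in these bases, and Hmgb2 held CCAAT at 4 positions and the CHR word at 2.

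Marker lists were compared between rich and other cells of the same library. The summed iNKT1 list (9 genes, among them Ccl5 and Nkg7 of cytotoxic cells) was lower in rich cells in 6 of 6 libraries, at 0.442 to 0.714 of the level of the other cells. Ccl5 and Nkg7 hold most of that sum, and each gene of the list was lower in 6 of 6 libraries except Tbx21, the lineage's transcription factor, which was lower in 3. Ccl5, for example, was at 3213 and 2595 CPM in rich liver cells and 5219 and 4236 CPM in the other liver cells. The iNKT17 list (11 genes, among them Tmem176a and Tmem176b) was lower in 6 of 6, at 0.351 to 0.683, and in lymph node, where it was highest, it was at 508 and 568 CPM in rich cells against 1446 and 1612 CPM in the others. The iNKT2 list (7 genes, among them Icos and Gata3) was lower in 5 of 6, at 0.843 to 1.12, but Icos, its most abundant gene, was lower in 2 of 6 and Gata3 in 3 of 6. The recent emigrant list (6 genes) was lower in 4 of 6, at 0.788 to 1.06, with Satb1 lower in 6 of 6 and the others in 1 to 3. The T cell list (5 of 8 genes in the matrices) was lower in 6 of 6, at 0.728 to 0.826, as was each of its genes except Cd5, which was lower in 2 of 6. Since rich cells hold more UMIs of other genes, a lower CPM need not mean fewer UMIs per cell.

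**Figure D5:**
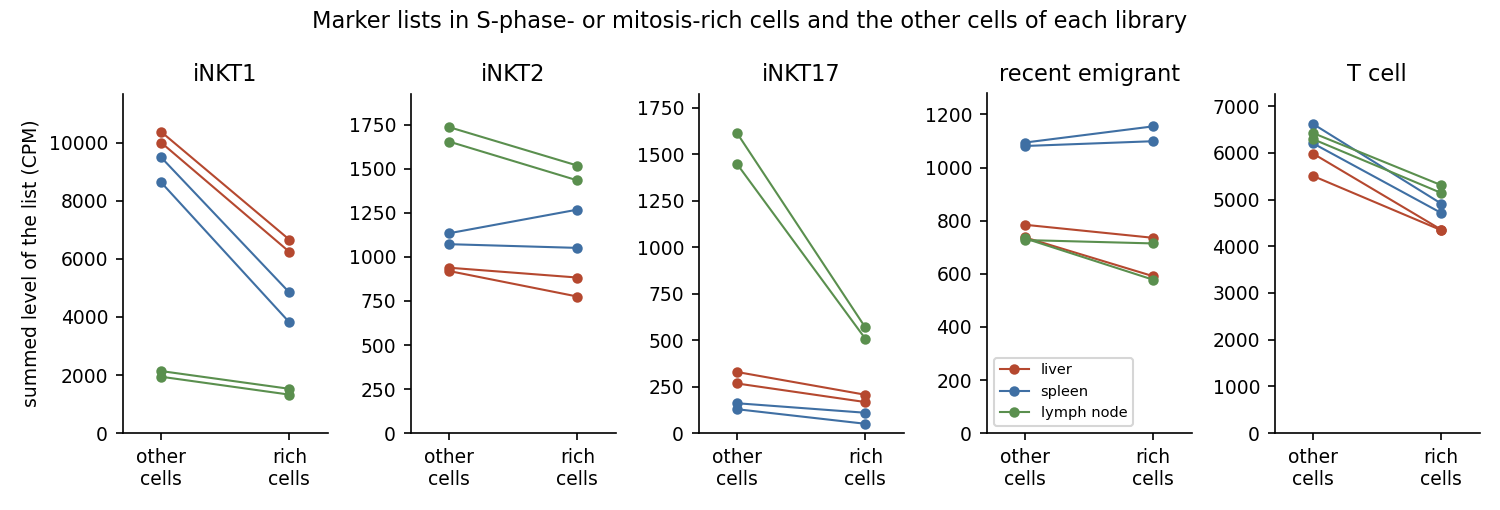
Summed level of 5 marker lists in CPM (vertical axes, from 0) in the other cells and in the S-phase- or mitosis-rich cells, with 1 line per library coloured by organ. The iNKT1, iNKT17 and T cell lines fall in 6 of 6 libraries, while the iNKT2 and recent emigrant lines stay near level at 0.788 to 1.12 of the other cells.

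Markers of other cells were low in the rich cells. The B cell list (6 of 8 genes in the matrices) summed to 0 to 6.46 CPM in rich cells and 3.11 to 20.4 CPM in the others, with Pax5, Ebf1 and Ms4a1 at 0. The NK cell list summed to 0 to 8.07 CPM with Eomes at 0. The erythroid list summed to 0 to 4.42 CPM with Klf1, Car1 and Slc4a1 at 0, and Car1 and Slc4a1 were at 0 in the other cells too. The erythroid list was higher in rich cells in liver replicate 2 only, where it rested on 4 UMIs of Alas2. The thymocyte list summed to 0 to 7.68 CPM with Rag1, Rag2, Dntt and Cd24a at 0. The hepatocyte list summed to 0 to 6.35 CPM with Alb and Ttr at 0. The myeloid list was at 170 to 257 CPM in rich cells, nearly all of it Cst3, with Adgre1 and Cd14 at 0. The plasma cell list was at 48.3 to 82.5 CPM, most of it Xbp1, with Jchain at 0. The CD8 list, whose cells the sort depletes, was higher in rich cells in 5 of 6 libraries and reached 25.8 CPM in spleen replicate 1, where it rested on 8 UMIs of Cd8b1.

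Further genes of the same processes were counted from 3 longer lists. Of 60 other mitosis genes tested, 15 were higher and 4 lower in liver than in spleen, 20 higher and 1 lower than in lymph node, and 1 higher in spleen than in lymph node. As shares, 25% were higher and 6.67% lower than in spleen and 33.3% and 1.67% than in lymph node, beside the 12.7%, 13%, 18% and 19.6% of all genes, and 1.67% were higher in spleen than in lymph node beside 7.98%. Their medians were 0.45, 0.43 and 0.18. Espl1, the separase that cuts cohesin, was at 2.71 and 3.31 CPM in liver and 0.522 and 0.841 in spleen (log2 fold change 2.02, adjusted p = 0.0221, edgeR). Nek2, a centrosome kinase, was at 6.27 and 6.30 against 2.09 and 1.96 (1.54, adjusted p = 0.00638, edgeR). Cdc25c, the phosphatase that activates Cdk1, was at 1.99 and 3.81 CPM in liver and 0.261 and 1.12 in spleen (1.96, adjusted p = 0.0323, edgeR). Few UMIs of Espl1 and Cdc25c were counted in spleen. Over lymph node the widest gaps among the called genes were those of the spindle genes Aspm (1.61, adjusted p = 0.00569, edgeR), Kif2c (1.47, adjusted p = 0.00123, edgeR) and Hmmr (1.44, adjusted p = 0.000406, edgeR). The gene higher in spleen than in lymph node was Ckap5, a microtubule polymerase (1.04, adjusted p = 0.00141, edgeR).

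Of 53 other replication genes tested, 2 were higher and 6 lower in liver than in spleen, 5 higher and 3 lower than in lymph node, and 1 higher and 1 lower in spleen than in lymph node, with medians of 0.05, 0.07 and 0.07. These shares (3.77% and 11.3%, 9.43% and 5.66%, 1.89% and 1.89%) lay below those of all genes called in the same directions (12.7% and 13%, 18% and 19.6%, 7.98% and 10.3%). Dtl, which marks replication factors for destruction, was lower in liver, at 17.8 and 17.4 CPM against 31.8 and 46.6 in the spleen and 33.6 and 36.3 in the lymph node (log2 fold changes -1.23 and -1.05, adjusted p = 8.81e-06 and 3.37e-05, edgeR). Rpa3, a subunit of the single-strand binding protein, was at 74.4 and 97.6 CPM in liver and 140 and 160 in spleen (-0.89, adjusted p = 7.94e-05, edgeR). The primase subunit Prim2 was lower in spleen than in both other organs (0.76 for liver over spleen, adjusted p = 0.0273, and -0.79 for spleen against lymph node, adjusted p = 0.0408, edgeR). Rad51ap1, of recombination repair (1.17, adjusted p = 0.0029, edgeR), and Clspn, of the replication checkpoint (0.88, adjusted p = 0.0300, edgeR), were higher in liver than in lymph node, and Dnmt1, the maintenance DNA methyltransferase, was higher in spleen than in lymph node (0.59, adjusted p = 0.00504, edgeR).

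Of 34 regulators of the cycle tested, 3 were higher and 2 lower in liver than in spleen, 6 higher and 8 lower than in lymph node, and 3 higher and 5 lower in spleen than in lymph node. The shares of 8.82% and 5.88% over spleen lay below those of all genes, and the 17.6% and 23.5% over lymph node and the 8.82% and 14.7% between spleen and lymph node lay near the 18% and 19.6% and the 7.98% and 10.3% of all genes. Cdkn1a, the gene of the cyclin-dependent kinase inhibitor p21, had the largest log2 fold changes of this list in both comparisons with lymph node. It was at 59.3 and 49.5 CPM in lymph node, 4.85 and 3.48 in liver and 2.61 and 0.280 in spleen, where few UMIs were counted. It had log2 fold changes of -3.75 for liver over lymph node (SE 0.26, adjusted p = 2.2e-12, edgeR), -5.15 for spleen against lymph node (SE 0.35, adjusted p = 3.44e-12, edgeR) and 1.40 for liver over spleen (SE 0.49, adjusted p = 0.0352, edgeR). Foxm1, a transcription factor of mitotic genes, was at 4.99 and 3.31 CPM in the liver, 2.35 and 0.561 in the spleen and 1.62 and 1.11 in the lymph node, with log2 fold changes of 1.40 (adjusted p = 0.0456, edgeR) and 1.53 (adjusted p = 0.0226, edgeR). Ccnd3, a D-type cyclin of G1, was at 510 and 481 CPM in the liver, 281 and 232 in the spleen and 180 and 187 in the lymph node (0.87 over spleen, adjusted p = 1.42e-06, edgeR). Ccne2, a cyclin of S-phase entry, was lower in liver than in lymph node (-1.43, adjusted p = 0.0498, edgeR). Cdkn1c, another kinase inhibitor (-1.78, adjusted p = 0.0354, edgeR), and Lin54, a subunit of the complex that binds the CHR (-1.39, adjusted p = 6.73e-06, edgeR), were lower in spleen than in lymph node.

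Of the 43 members, 9 overlap an annotated gene on the opposite strand (GENCODE vM21), namely Mcm7, Gins2, Cdc45, Tk1, 2810417H13Rik, Nusap1, Ccna2, Ube2c and Cdc20. Whether the counting used strand is not given in the sources used here, so reads from these genes and their partners might not be told apart.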

How the data were processed

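The values were UMI counts per gene and cell barcode, raw and unnormalised, in 6 matrices that the authors deposited. Per the submitters' processing notes they were made with Cell Ranger 3.1.0 against mm10, and Seurat is also named. The deposited gene and barcode lists gave the names. Barcodes with 300 to 4000 genes and at most 15% mitochondrial UMIs were kept (16532 of 16587), which is more cells than the study analysed. The labels call the molecule nuclear RNA although they describe sorted whole cells, which was not settled. Genes of ribosomal proteins, rRNA and haemoglobin (178 genes) were left out, 24.1% to 35.5% of the UMIs of a library.

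UMIs were summed per library and tested with edgeR 4.0.16 (filterByExpr with a minimum count of 10, TMM, robust quasi-likelihood fit of all 6 libraries, Benjamini-Hochberg over all genes), in R 4.3.3. DESeq2 1.42.0 was an alternative. The standard error is the log2 fold change divided by the square root of F. Cells were thinned with Python 3.11.15 and numpy 2.4.6, and doublets were scored with Scrublet in scanpy 1.11.5, with no cell removed for them in the main result. Exact binomial intervals (Clopper-Pearson, scipy 1.17.1) cover counting error only. Full statistics are given for called members with a log2 fold change of at least 1 in size and for the 3 members with most UMIs per role, and from the longer lists up to 3 called genes per comparison are named. The members, lists and tests were chosen with earlier results of these data known. The alternatives were other low-count and cell filters, a replicate block, thinned libraries or cells, all genes kept, other limits for rich cells and leaving out each library.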

Additional observations from a re-analysis of the deposited data

Results flagged for a closer look

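Among the barcodes left out of the main comparisons, 10 liver barcodes (9 of replicate 1 and 1 of replicate 2) exceeded 4000 genes. After thinning to 800 UMIs, 8 of these 10 were mitosis-rich, against 3.08% and 3.55% of the kept liver cells that had at least 800 retained UMIs. The 10 barcodes were singled out because they show a signal of the mitotic members in data that the main comparisons do not use. They enter the comparisons made without the cell filter. The study left barcodes above this limit out as potential doublets, and whether they are doublets was not tested here. Of the 10, 8 were S-phase-rich and 9 either. They held 13070 to 19890 UMIs in replicate 1 and 15060 in replicate 2, and the median of mitotic UMIs of 800 was 6 in replicate 1 (range 1 to 13) and 3 in replicate 2. No barcode of spleen or lymph node exceeded the limit.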

How the results depend on the processing

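Results of single members called at the main settings were taken again under each other setting. Of these, 458 kept their direction and their call and 95 kept their direction but lost the call. In 1 the sign changed, Cenpa in liver over spleen at -0.027 in thinned cells without rich cells. Members not called at the main settings are not in this tally, and several of them, among them Ube2c and Tk1, were called at other settings. No setting moved the median of all genes by more than 0.1. Counts of called members that moved by over 1.5 times were as follows, and the cause was not tested unless stated. DESeq2 called 1 S-phase member higher and 0 lower for liver over lymph node and 0 higher and 0 lower for spleen over lymph node. For liver over spleen it called 1 S-phase member and 6 mitotic members higher. Of all genes it called 10.7% higher and 14.4% lower for liver over lymph node. The shares were 4.37% and 6.65% for spleen over lymph node, and 5.84% were higher for liver over spleen. With libraries thinned to one total, 1 S-phase member was higher for liver over spleen, beside 11.2% of all genes. Without the top doublet scores 1 mitotic member was higher in spleen than in lymph node, beside 7.93% of all genes. Without a filter on low counts or without the cell filter 1 was lower there, beside 7.18% and 10.4% of all genes. In thinned cells, with fewer UMIs and fewer members tested, 0 S-phase members were lower for liver over lymph node, beside 16.7% of all genes. There 6 and 8 mitotic members were higher in liver than in spleen and lymph node, beside 9.07% and 14.5% of all genes. In spleen against lymph node 1 mitotic member was higher and 1 lower, beside 6.19% and 8.98%. Without the rich cells 11 mitotic members were tested, against 20 in thinned cells, and the mitotic counts in the same order were 0, 2, 0 and 1. Of all genes tested there, 8.99% and 14.1% were higher in liver than in spleen and lymph node. In spleen against lymph node 5.99% were higher and 9.13% lower. In this setting 1 mitotic and 1 broadly expressed member (Tubb5) were lower in liver than in lymph node. For S-phase members, 1 was higher in liver than in spleen and 0 were lower in spleen than in lymph node. The rich cells are chosen by the members' own UMIs, so this setting, in which Cenpa changed sign, is no test of the members.

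Leaving out 1 library gave 0 to 4 S-phase members higher and 0 to 3 lower for liver over spleen, 1 to 4 and 0 to 2 for liver over lymph node, and 0 to 5 and 0 to 2 for spleen over lymph node. For mitotic members it gave 3 to 13, 10 to 17 and 0 to 3 higher and 0, 0 and 0 to 1 lower. For broadly expressed members it gave 0, 0 and 0 to 1 higher and 0, 0 to 1 and 0 to 1 lower. The percent of S-phase-rich cells in liver, spleen and lymph node was 15.9, 15.4 and 14.5 with a limit of 2 UMIs, 2.19, 1.84 and 1.81 with 5, 2.86, 2.75 and 2.25 with cells thinned to 500 UMIs, and 25.4, 11.7 and 11.5 without thinning. The percent of mitosis-rich cells was 6.08, 4.08 and 3.91, then 2.43, 1.18 and 1.13, then 2.43, 1.10 and 1.09, and 8.84, 3.41 and 3.15. At the limit of 3 UMIs the library values of the report are the shares without 1 library. At a limit of 5 UMIs the S-phase-rich share in spleen was 1.16% without replicate 2 and 2.53% without replicate 1.

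With the replicate number as a block, 3, 3 and 1 S-phase members were higher and 1, 2 and 1 lower. Of the mitotic members 15, 18 and 2 were higher and 0, 0 and 1 lower, and of the broadly expressed members 0 were higher and 0, 1 and 1 (Tubb5) lower. Of all genes tested in this fit, 14.54%, 19.52% and 9.35% were higher and 15.25%, 21.14% and 11.37% lower. Same-numbered libraries correlated at 0.0852, 0.0828 and 0.0675 in their deviations from the organ means, so the numbers were not taken as pairs.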
